A study of Sus scrofa with 20 samples.

Results

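The libraries described here are the 6 with the highest and the 6 with the lowest level of 2 interferon-stimulated transcripts, OAS2 and IFIT1, among 20 libraries of pig backfat. They were selected on measured values. For each library the raw counts of OAS2 and of IFIT1 were divided by the total count of the library to give CPM, the usual depth-scaled unit, 1 was added, and the mean of both log2 values was taken as its interferon score. The remaining 8 libraries lay between. Because OAS2 and IFIT1 chose the groups, their values are given as a description with no test, and both loci were left out of every comparison.

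Each library came from 1 Italian Large White pig, so replicates are separate animals. All 20 pigs shared housing and diet, weighed 150 to 160 kg, and gave backfat, the fat layer beneath the skin of the back, at a slaughterhouse at 233 to 250 days of age. No animal received an agent, and the labels name 10 females and 10 castrated males. Polyadenylated RNA was sequenced. Each library is named here by its sex label and a running number, which links no female to any castrated male.

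Interferons are secreted proteins that cells release when sensors in the cytosol or in endosomes detect foreign nucleic acid. Type I interferons bind a receptor on the same and on neighbouring cells, Janus kinases pass the signal to transcription factors that include STAT2 and IRF9, and these switch on interferon-stimulated genes, whose products cut viral RNA, block translation or trap virus particles. In adipose tissue the response can run in fat cells, vessel cells and resident macrophages, and RNA of whole tissue mixes all of them. In such bulk samples fewer cells of a type and less RNA per cell cannot be told apart.

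OAS2, an enzyme that makes the 2-5A signal of antiviral defence, stood at 348 CPM in castrated male 1, 262 in castrated male 10, 351 in castrated male 6, 253 in castrated male 3, 162 in castrated male 9 and 174 in female 1, the 6 high libraries. IFIT1, which binds RNA lacking a host cap, stood in the same order at 80.2, 73.1, 30.7, 27.7, 34.2 and 31.4 CPM. IFIT1 set castrated males 1 and 10 apart from the other 4, whereas OAS2 did not: castrated male 6 had the highest OAS2 level, and castrated male 10 was close to castrated male 3. In the low group OAS2 was at 70.5 CPM in castrated male 2, 47.9 in castrated male 8, 46.9 in female 6, 46.8 in female 3, 47.8 in castrated male 7 and 44.0 in castrated male 5. IFIT1 stood there, in the same order, at 19.1, 25.6, 22.2, 22.2, 19.7 and 14.98 CPM. IFIT1 of the 8 libraries between overlapped both groups. The score ran from 6.23 to 7.40 in the high group and from 4.75 to 5.25 in the low group. Just outside the thresholds lay female 10 at 5.90 and female 9 at 5.30. With OAS2 alone as the score, 6 of the 6 high and 5 of the 6 low libraries were the same, and with IFIT1 alone 5 and 3 were.

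**Figure D1:**
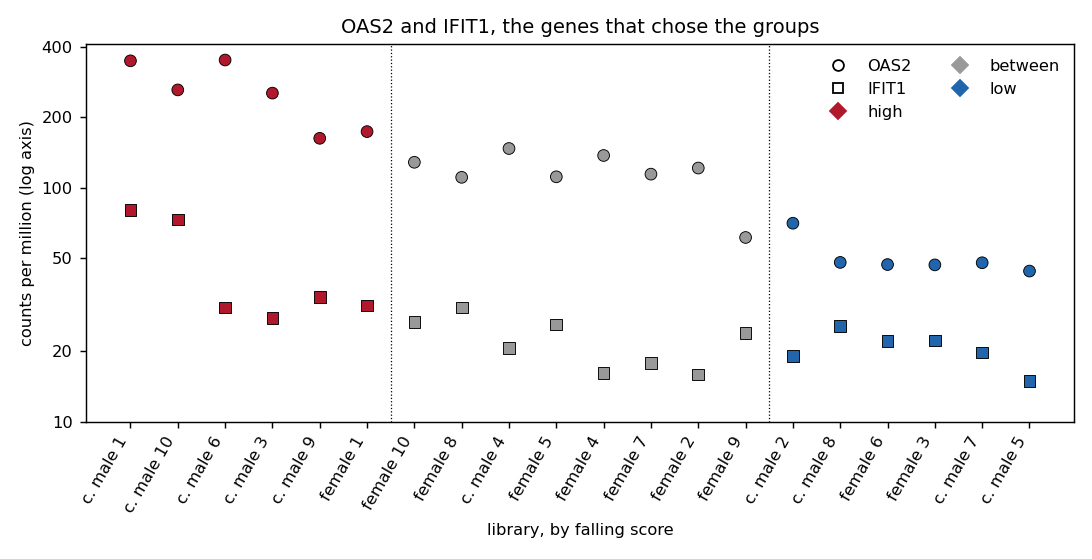
CPM of OAS2 (circles) and IFIT1 (squares) on a log axis in each of the 20 libraries, ordered by falling score, with dotted lines between the 6 high, 8 between and 6 low libraries. OAS2 separates the groups, from 162 to 351 CPM against 44.0 to 70.5 CPM, whereas IFIT1 stands out in castrated males 1 and 10, at 80.2 and 73.1 CPM.

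Some libraries stood apart. Castrated male 1, of the highest score, had a summed level of fatty acid synthesis genes of 1507 CPM against 10834 to 34405 CPM in the other 5 high libraries, and the highest summed level of macrophage markers of all 20, 1457 CPM against 971 CPM in the next. The library labelled castrated male 10 lay on the female side at 17 of 17 loci that separated the 9 other females from the 9 other castrated males, and the library labelled female 10, which is in neither group, lay on the castrated male side at 16. Labelled sex is therefore uncertain for both. The backfat identity held in all libraries, with a summed level of adipocyte genes of 4208 to 10334 CPM and of skeletal muscle markers of 0 to 4.16 CPM. No property tested separated the groups: age averaged 241 ± 4.27 days in the high and 242 ± 6.40 days in the low group (SD, n = 6 each, two-sided exact permutation test p = 0.686), the mitochondrial share of counts 16.8 ± 6.42% and 14.8 ± 4.66% (exact permutation p = 0.550), and 1 of 6 against 2 of 6 libraries were labelled female (Fisher's exact test p = 1). Total counts ran from 28009303 to 51248122 in the high and from 32670992 to 43578047 in the low group (exact permutation p = 0.626). The number of loci with a count did not pass either (exact permutation p = 0.255), and over the 5 properties the adjusted p was at least 0.858.

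Across all other genes the high and low libraries differed little by a test of single loci. Of 21585 loci tested in edgeR, 1 was higher in the high group (0.00463% of loci) and 0 were lower (0%) at an adjusted p under 0.05. At an unadjusted p under 0.05 edgeR counted 449 higher (2.08%) and 394 lower (1.83%). After adjustment DESeq2 called 20 of the same 21585 loci higher and 6 lower. Of the 20, 13 had a symbol and 10 were among the 85 tested loci of the interferon lists. RSAD2, MX1, DDX60, IFI44 and PARP9 were among those 10, and of the 6 lower F5 and FAM43B had a symbol. Every high library was above every low library at 24 loci (0.111%) and below at 12 (0.0556%). The median log2 difference over all loci was 0.00. Since the groups were picked by a measured level, these p-values describe how far a locus went along with OAS2 and IFIT1, not how it answered a treatment.

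The locus that passed carries the identifier of SLC8B1, ENSSSCG00000009880, a mitochondrial sodium and calcium exchanger. It stood at 57.1, 34.0, 62.9, 54.3, 26.5 and 29.6 CPM in the high libraries in the order above and at 13.2, 5.12, 6.87, 6.81, 5.87 and 3.27 CPM in the low ones, with no overlap (log2 difference 2.68, SE 0.317, edgeR adjusted p = 0.0145). Its counts were 7.64 to 21.0% of those of OAS2 in each of the 20 libraries. For the other loci with this identifier they were 7.10 to 67.2% and 4.11 to 21.6%. In the RefSeq annotation of Sscrofa11.1, a later assembly than that of the files, SLC8B1 is the direct neighbour of OAS2, 3 loci carry its identifier, and strand use in counting is not given in the sources used here, so reads of OAS2 and of this locus cannot be told apart. The call was lost with labelled sex in the model (adjusted p = 0.0589) and without castrated males 1 and 10 (adjusted p = 0.146), with log2 differences of 2.62 and 2.65. It was also lost without castrated male 3, castrated male 8, female 6, female 3 or castrated male 7, each left out alone (edgeR adjusted p = 0.0539, 0.0759, 0.0825, 0.0805 and 0.0864). With groups from OAS2 alone the log2 difference of the locus was 2.88 (edgeR adjusted p = 0.000544). With groups from IFIT1 alone it was 1.495 and the call was lost (edgeR adjusted p = 0.405).

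The interferon response beyond OAS2 and IFIT1 was followed through 9 gene lists of 143 symbols, of which 76 matched 87 loci and 85 loci passed the filter on low counts. Of these 85, 80 had a log2 difference above 0 with a median of 0.41, against 50.2% and 0.00 over all loci tested. None passed after adjustment, 46 of 85 were higher at an unadjusted p under 0.05 against 2.08% of all loci, and 0 were lower. At 7 every high library was above every low library, against 0.111% of all loci. OAS2 and IFIT1 belong to the same response, so this direction is not independent of how the libraries were picked. Without castrated male 1 the counts were 74 above 0 with a median of 0.35 and 34 at an unadjusted p under 0.05, and without castrated males 1 and 10 they were 74, 0.27 and 29. Among labelled castrated males alone 82 were above 0, with a median of 0.50 and 37 at an unadjusted p under 0.05. Over all loci 1.60%, 1.27% and 2.27% were higher at that p in these fits, in the same order. The share of all loci above 0 was not taken in fits with a library left out, among males alone or with a covariate. For each list below, the fit of 6 against 6 had 50.2% of all loci above 0, 2.08% higher and 1.83% lower at that p.

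Sensors of nucleic acid had all 15 tested loci above 0 with a median of 0.39, and 7 at an unadjusted p under 0.05. ZBP1, a sensor of left-handed nucleic acid, was at 66.8 and 74.2 CPM in castrated males 1 and 10, at 40.1 to 45.1 CPM in the other 4 high libraries and at 22.7 to 32.5 CPM in the low ones (log2 difference 0.87, SE 0.170, edgeR adjusted p = 0.288). The groups did not overlap there, while the other locus of ZBP1 lay at 0.17, and at -0.02 without castrated males 1 and 10. DHX58, a helicase that tunes the RNA sensors, ran from 9.12 to 21.2 CPM with a median of 15.2 against 5.03 to 10.3 CPM with a median of 7.14 (log2 difference 1.02, SE 0.234), so that its lowest high libraries, castrated male 3 and female 1, lay below castrated male 8 of the low group. IFIH1, which senses long double-stranded RNA, ran from 23.9 to 72.8 CPM against 23.2 to 31.8 CPM (log2 difference 0.76, SE 0.214), and its highest level of all 20, 83.2 CPM, was in female 7, between the groups. The endosomal receptors TLR3, TLR7 and TLR8 had log2 differences of 0.66, 1.04 and 0.86, and without castrated male 1 those of TLR7 and TLR8 were 0.68 and 0.24. Adaptors that pass the signal on, MAVS, MYD88 and STING1, lay at 0.09, 0.15 and 0.25.

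Of 8 interferon genes, 1 symbol, IFNK, matched a locus, at 0.0377 to 0.435 CPM over the 20 libraries, and it did not pass the filter. IFNB1 and IFNG matched no locus by symbol. Of the receptors and their kinases, IFNGR1, the chain that binds type II interferon, JAK1, JAK2 and TYK2 were tested and had log2 differences of 0.09, 0.13, 0.22 and 0.11, with 0 of 4 at an unadjusted p under 0.05.

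Transcription factors of the pathway had 10 of 13 loci above 0. IRF9, the DNA-binding subunit of the factor that type I interferon activates, ran from 68.4 to 133 CPM with a median of 79.5 against 38.03 to 64.9 CPM with a median of 58.0, with no overlap (log2 difference 0.59, SE 0.171). STAT2, a further subunit, lay at 0.50 (SE 0.163). BATF2, a leucine zipper factor induced by interferon, ran from 3.59 to 14.6 CPM against 1.07 to 3.81 CPM (log2 difference 1.58, SE 0.383, edgeR adjusted p = 0.737). IRF1, a factor best known for the type II response, had 2 loci, at 0.50 for the locus of its own and at 0.34 for the one shared with RAD50. The former was at 0.23 without castrated male 1 and no longer at an unadjusted p under 0.05. STAT3 and IRF3 lay near 0, the 2 loci of STAT3 at -0.14 and -0.06 and IRF3 at 0.08. In all 7 of 13 tested loci of these factors were higher at an unadjusted p under 0.05. The IRF7 locus did not pass the filter.

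Antiviral effectors made up the largest list, with 26 of 28 loci above 0, a median of 0.45 and 18 at an unadjusted p under 0.05. RSAD2, the enzyme viperin that makes a chain-terminating nucleotide, was at 79.9, 170, 57.9, 41.2, 41.9 and 31.9 CPM in the high libraries and at 32.7, 16.7, 18.3, 23.8, 17.6 and 13.5 CPM in the low ones (log2 difference 1.78, SE 0.372, edgeR adjusted p = 0.353). Female 1 of the high group lay just below castrated male 2 of the low group, and without castrated males 1 and 10 the log2 difference was 1.07. MX1, a GTPase that traps viral nucleoproteins, was at 100.4 and 114 CPM in castrated males 1 and 10, at 37.2 to 56.8 CPM in the other 4 and at 14.6 to 39.1 CPM in the low group (log2 difference 1.27, SE 0.299). Its neighbour and relative MX2 overlapped more, from 92.3 to 378 CPM against 71.1 to 183 CPM (log2 difference 0.97, SE 0.331).

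DDX60, a helicase of the RNA sensing pathway, ran from 5.02 to 29.7 CPM with a median of 11.3 against 2.97 to 6.64 CPM with a median of 4.25 (log2 difference 1.56, SE 0.371). IFI44 did not overlap, at 70.2, 112, 55.3, 42.8, 54.8 and 41.5 CPM against 24.1 to 31.6 CPM (log2 difference 1.13, SE 0.209, edgeR adjusted p = 0.283). Its neighbour IFI44L did not overlap either, at 107 to 288 CPM against 70.2 to 98.1 CPM (log2 difference 0.82, SE 0.206). The kinase EIF2AK2, which stops translation on double-stranded RNA, lay at 0.78 (SE 0.231), and ADAR, the enzyme that edits adenosine in double-stranded RNA, at 0.45 (SE 0.143). ISG20, a 3' exonuclease, was low in all libraries but castrated male 1, at 5.21 CPM there, 0.443 to 0.904 CPM in the other high and 0.283 to 0.577 CPM in the low libraries. Its log2 difference of 1.99 was 0.95 without castrated male 1.

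Not every gene of the response went along. IFIT2 lies in the gene cluster of IFIT1 and ran from 49.7 to 84.0 CPM against 47.1 to 87.0 CPM, with the highest value of both groups in castrated male 5, the library of lowest score (log2 difference 0.16, SE 0.168). IFIT5 of the same cluster was high in castrated males 1 and 10, at 96.4 and 147 CPM, and at 61.0 to 76.0 CPM in the other 4 against 59.9 to 73.5 CPM in the low group (log2 difference 0.40, SE 0.190). SAMHD1, which depletes nucleotides, lay at -0.01 and 0.10. OAS1, OASL, IFIT3, ISG15 and IFI6 matched no locus by symbol. Close relatives such as MX1 and MX2 or the IFIT genes share sequence, and how reads with several matches were counted is not given in the sources used here, so their separate values are uncertain.

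**Figure D2:**
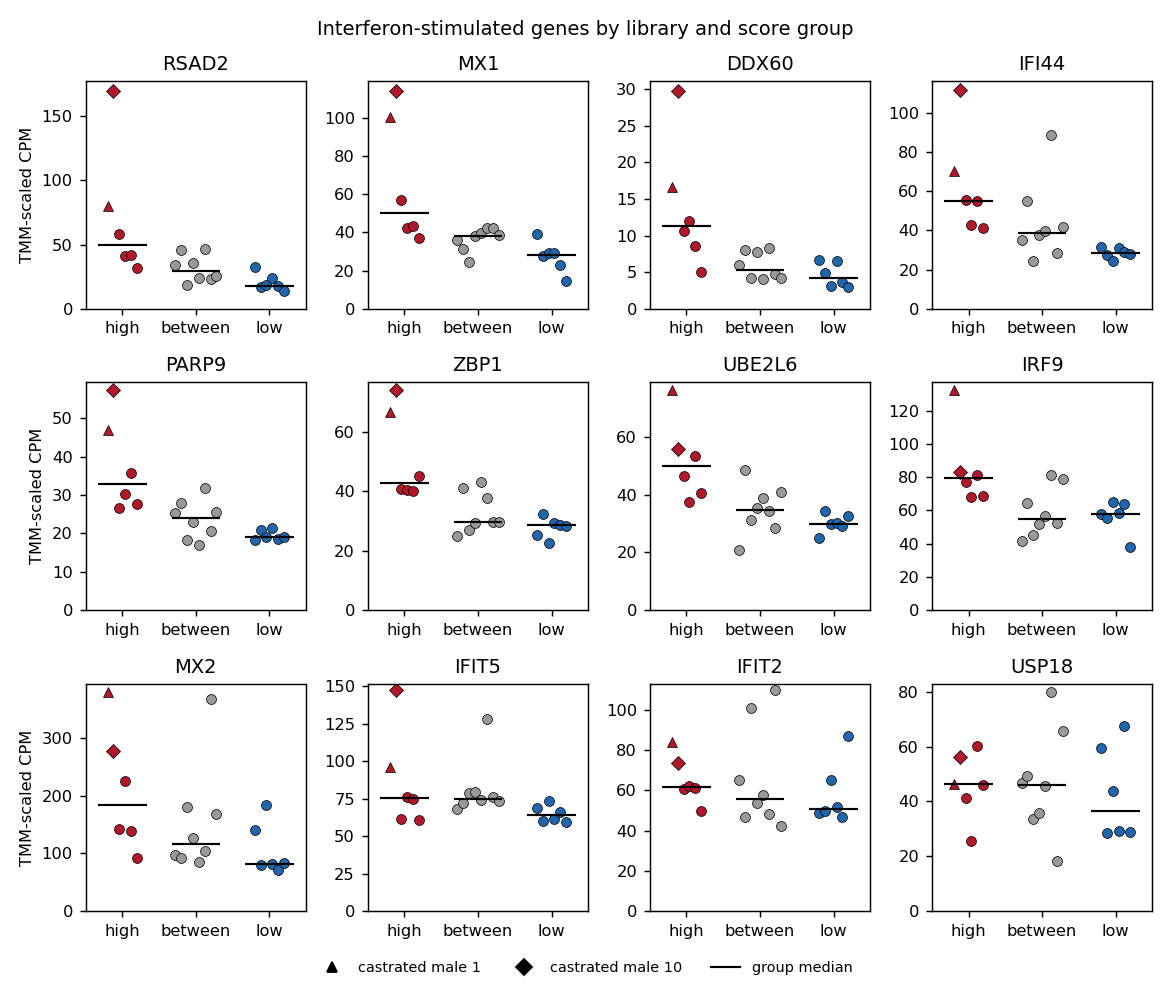
TMM-scaled CPM of 12 interferon-stimulated genes in each library, by score group, with the group median as a line; the triangle is castrated male 1 and the diamond castrated male 10. RSAD2, MX1 and DDX60 are highest in those libraries, IFI44, PARP9, ZBP1, UBE2L6 and IRF9 show no overlap of the high and low groups, and IFIT2 and USP18 overlap throughout.

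Conjugation of ISG15, a ubiquitin-like protein attached to other proteins during the response, had all 5 tested loci above 0, with a median of 0.77 and 4 at an unadjusted p under 0.05. Its summed level did not overlap, at 252 to 482 CPM in the high and 190 to 223 CPM in the low libraries. UBE2L6, the conjugating enzyme, ran from 37.5 to 76.3 CPM against 24.8 to 34.4 CPM (log2 difference 0.77, SE 0.159). The locus that holds UBA7, the activating enzyme, together with CDHR4 ran from 63.3 to 102 CPM against 36.9 to 58.1 CPM (log2 difference 0.74, SE 0.141), also with no overlap. The ligases HERC5 and HERC6 lay at 1.30 and 0.77. USP18, which removes ISG15 and damps receptor signalling, ran from 25.8 to 60.1 CPM against 28.5 to 67.6 CPM and stood at 0.09 (SE 0.251).

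PARP9 and its partner DTX3L, which form a complex, were at 0.94 (SE 0.179) and 0.71 (SE 0.202). PARP9 ran from 26.7 to 57.4 CPM against 18.3 to 21.3 CPM with no overlap, and PARP12 and PARP14 were at 0.63 and 0.88. Among interferon-linked TRIM ligases 6 of 6 tested loci were above 0 and 3 were at an unadjusted p under 0.05, with TRIM34 at 0.80 and the antibody receptor TRIM21 at 0.41. The summed levels of the PARP and TRIM lists did not overlap between the groups, at 97.9 to 209 against 76.4 to 95.7 CPM and at 80.6 to 132 against 57.4 to 80.1 CPM. Apart from these and the ISG15 list, the sums of the interferon lists overlapped. That of the interferon response lists together did too, at 3799 to 6245 CPM in the high and 3060 to 3835 CPM in the low libraries.

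Guanylate-binding proteins and genes of the type II interferon response had 9 of 9 loci above 0 with a median of 0.33, and 3 at an unadjusted p under 0.05. GBP2, a GTPase that attacks vacuoles of pathogens, ran from 44.4 to 151 CPM against 33.5 to 55.7 CPM (log2 difference 0.76, SE 0.247), and was 0.45 without castrated male 1. IDO1, which breaks down tryptophan, was at 20.4 CPM in castrated male 1 and at 0.301 to 3.16 CPM in the other high libraries against 0.707 to 1.69 CPM in the low ones. Its log2 difference of 2.04 was 0.43 without that library. CXCL11, a chemokine for T cells, lay at 1.34 (SE 0.494). Negative regulators of the signal had 6 of 8 loci above 0, a median of 0.16 and 0 at an unadjusted p under 0.05, SOCS1 at 0.25 among them.

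Genes of antigen presentation were followed by class, and the classes were not tested against each other. Of the class I list 9 of 22 symbols matched a locus, and of the class II list 6 of 11. The SLA class I chains, B2M, TAP1, PSMB8, PSMB10 and NLRC5 matched no locus by symbol. Of the class I pathway, which shows peptides of the cell's own proteins, 8 of 9 loci were above 0 with a median of 0.21, and PSMB9, a subunit of the immunoproteasome, was the 1 at an unadjusted p under 0.05 (0.61, SE 0.261). Without castrated male 1 the MHC class I presentation list had 6 of 9 above 0 with a median of 0.06, PSMB9 was at 0.40, and 0 were at an unadjusted p under 0.05. Of the class II pathway, which shows peptides taken up from outside, 6 of 6 were above 0 with a median of 0.50 and 4 at an unadjusted p under 0.05. SLA-DOA and SLA-DMB, which steer peptide loading, lay at 0.77 (SE 0.216) and 0.68 (SE 0.234). A locus with the symbol HLA-DRA, outside the list, was among the 24 where every high library was above every low library. The summed class II level was 2648 CPM in castrated male 1 and overlapped in the rest, at 1012 to 1532 against 971 to 1442 CPM. Without castrated male 1 the class II median was 0.31, with 2 at an unadjusted p under 0.05.

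**Figure D3:**
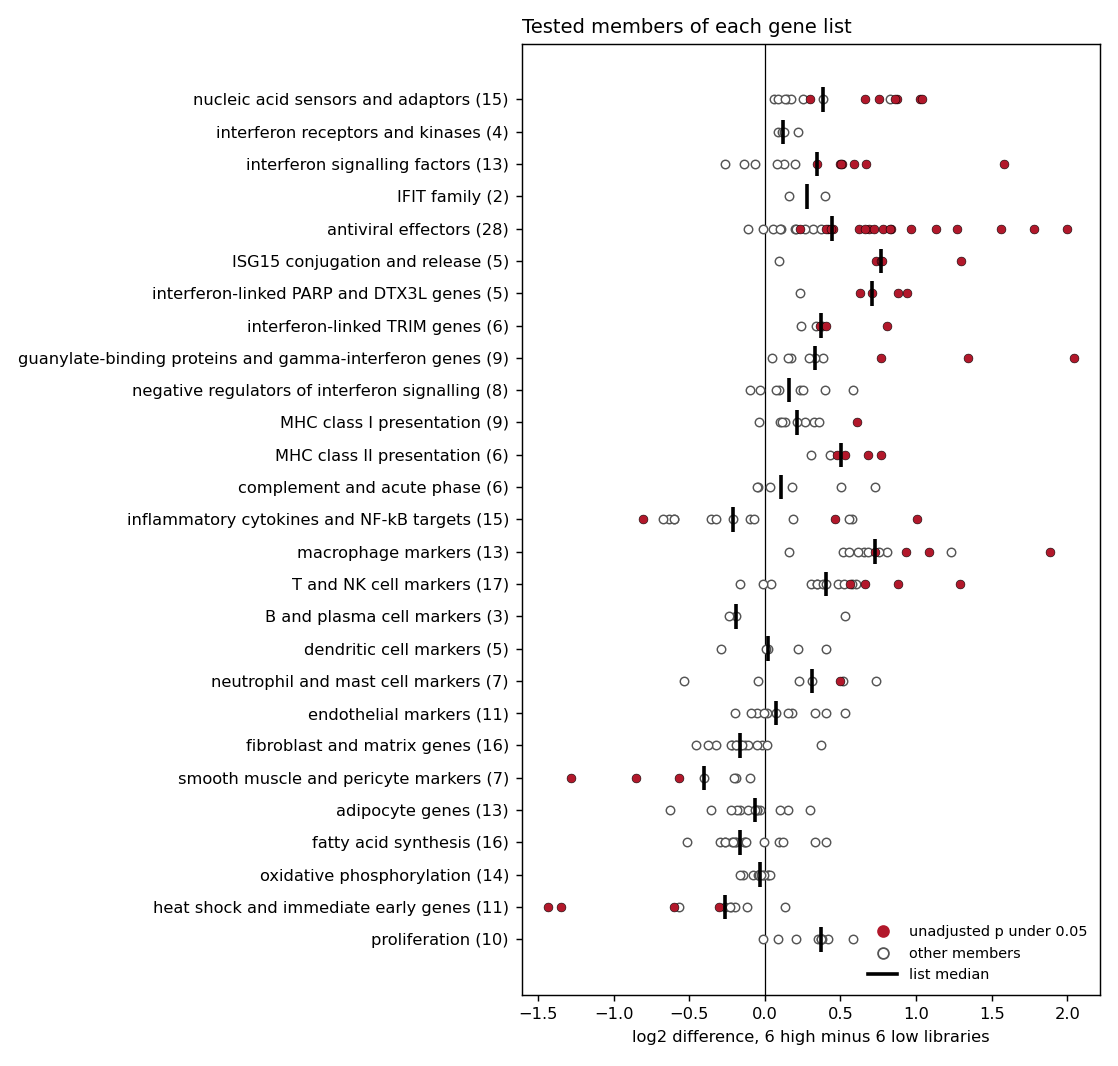
Log2 difference of each tested locus, 6 high minus 6 low libraries, by gene list, with the number tested in parentheses; red points had an unadjusted p under 0.05 in edgeR and bars are list medians. Interferon lists lie mostly to the right of 0, as do macrophage markers, with a median of 0.73, and smooth muscle markers lie to the left, with a median of -0.40.

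When all 20 libraries were fitted by the slope on the score, 39 loci rose with it (0.181% of 21585) and 2 fell (0.00927%) at an edgeR adjusted p under 0.05. Of the 39, 21 had a symbol, and 15 belonged to the interferon lists. RSAD2 rose by a log2 of 1.07 per unit of score (SE 0.128, edgeR adjusted p = 0.000293), MX1 by 0.78 (SE 0.0991, edgeR adjusted p = 0.000600) and DDX60 by 0.99 (SE 0.132, edgeR adjusted p = 0.000857). DHX58, PARP9, ZBP1, ISG20, BATF2, CMPK2, HERC5, UBE2L6, PML, HERC6 and PARP14 rose too. Rising genes outside the lists were SLC8B1, the inflammasome protease CASP1 at 0.88 (SE 0.151), the helicase ZNFX1 at 0.51 (SE 0.104), FBXO39, whose locus spans 2 identifiers, at 0.72 (SE 0.133), BCL2L14 at 0.69 (SE 0.135) and the amine oxidase AOC1 at 1.70 (SE 0.277). The files and the gene table gave no symbol for ENSSSCG00000027982 and ENSSSCG00000010453, which rose by 0.67 and 0.48. The latter identifier directly follows that of IFIT1, ENSSSCG00000010452, in number, and whether these loci share reads was not tested. GRXCR1 fell by 0.68 (SE 0.124, edgeR adjusted p = 0.0170), and ENSSSCG00000020843 was the other falling locus.

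The number of calls depended on which libraries were in the fit. Without castrated male 10, 35 loci rose, 26 of them among the 39. Without castrated male 1, 7 rose, RSAD2, MX1, DDX60, PARP9 and SLC8B1 among them, and without castrated males 1 and 10 only the SLC8B1 locus did. Slopes of the interferon response lists together stayed mostly above 0 without both, at 72 of 85 loci with a median of 0.16. Of these 85, 22 were at an unadjusted p under 0.05, where 1.27% of all loci rose at that p. Over all 20 libraries 82 were above 0, with a median of 0.26 and 53 at that p. There 47.9% of all loci were above 0 and 4.98% rose at that p. Without castrated male 8, of the low group, 126 rose, all 39 among them. AOC1 stood at 5.21 CPM in castrated male 1 and at 0.0490 to 1.10 CPM in the other 19, and CASP1 at 21.5 CPM against 1.87 to 6.97 CPM. The model with labelled sex called 13 rising loci, that with age 23, that with the summed macrophage markers 17 and that with the summed T and NK cell markers 18.

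**Figure D4:**
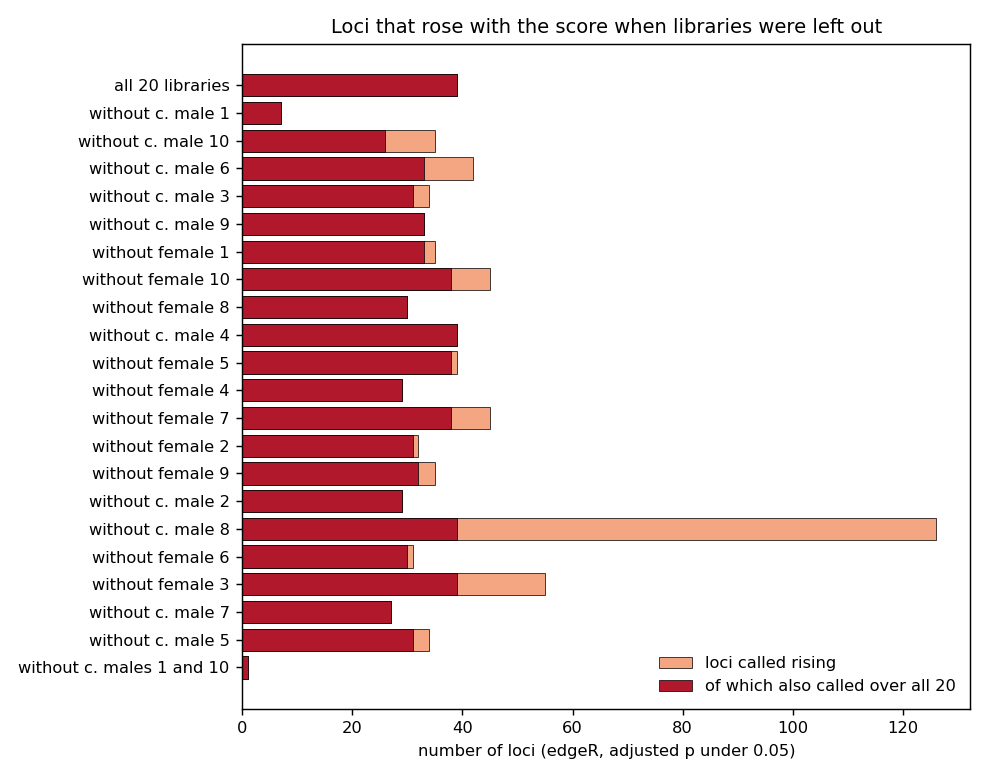
Number of loci that rose with the interferon score (edgeR, adjusted p under 0.05) over all 20 libraries, without each library in turn, ordered by falling score, and without castrated males 1 and 10; the dark part was also called over all 20. The count is 39 over all 20 libraries, 7 without castrated male 1, 126 without castrated male 8 and 1 without castrated males 1 and 10.

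The 8 libraries between were not used to form the groups and span scores from 5.30 to 5.90. Of these, 7 were labelled female and 1 castrated male, against 1 and 5 in the high and 2 and 4 in the low group. In them 0 loci passed in either direction after adjustment in edgeR, and at an unadjusted p under 0.05 561 rose with the score (2.60%) and 729 fell (3.38%). DESeq2 called 13 rising and 14 falling of the same 21585 loci. Of the 85 interferon loci 31 had a slope above 0 there, against 49.5% of all loci, with a median slope of -0.19. At an unadjusted p under 0.05, 0 rose and 6 fell. Slopes were 0.61 for RSAD2, -0.72 for MX1, -0.61 for IFI44 and -0.09 for PARP9. IFI44 and IFIH1 were highest of the 8 in female 7, at 88.9 and 83.2 CPM, where OAS2 ranked 11th and IFIT1 17th of 20. The narrow span of scores limits what slopes in 8 libraries can show, and their mix of sex labels differs from that of the compared groups.

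No marker of immune cells passed after adjustment in edgeR, between the groups or by the slope over all 20 libraries. Between the groups DESeq2 called MARCO, of the macrophage list, among its 20 higher loci. All 13 tested macrophage loci had a log2 difference above 0 with a median of 0.73, and 4 were higher at an unadjusted p under 0.05. Over all loci 50.2% were above 0 and 2.08% were higher at that p. In the 8 libraries between, 3 of the 13 had a slope above 0, with a median of -0.36. The summed macrophage level overlapped widely, at 340 to 1457 CPM in the high and 326 to 687 CPM in the low libraries, with castrated males 1 and 6 highest. MARCO, a scavenger receptor, ran from 1.003 to 3.47 CPM against 0.295 to 0.622 CPM with no overlap (log2 difference 1.88, SE 0.365, edgeR adjusted p = 0.288). C1QA, a complement subunit made by macrophages, ran from 52.0 to 389 CPM with a median of 103 against 49.4 to 129 CPM with a median of 66.4. It was highest in castrated male 1. CSF1R lay at 0.73 and the integrin chain ITGAM at 1.09. No defining marker of macrophages was at 0 in a library: counts were 177 to 4831 for MSR1, 348 to 2611 for CD14 and 1 to 146 for MARCO. The locus of CD68, which spans EIF4A1 too, was at 0.16. The macrophage median was 0.42 without castrated male 1. In that fit MARCO and ITGAM stayed at an unadjusted p under 0.05, and CSF1R and C1QA, at 0.53 and 0.42, did not.

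T and NK cell markers had 15 of 17 loci above 0 with a median of 0.41. At an unadjusted p under 0.05, 4 were higher, CTLA4, CD6, CD5 and CD2, against 2.08% of all loci. Their summed levels were 122 to 229 against 122 to 190 CPM. CD3D, a chain of the T cell receptor complex, had 81 to 462 counts per library. Neutrophil and mast cell markers had 5 of 7 above 0, and their sum did not overlap, at 118 to 152 against 70.2 to 112 CPM. KIT, the mast cell receptor that other cells also make, carried most of it, at 101 to 132 against 55.5 to 97.1 CPM (log2 difference 0.49, SE 0.142), and its other locus lay at 0.52. The other mast cell genes did not go along, with HDC, which makes histamine, at -0.54 and FCER1A, a chain of the IgE receptor, at -0.04. B cell, dendritic and endothelial lists had medians of -0.19, 0.02 and 0.08. With the summed macrophage markers in the model, 69 of the 85 interferon loci were above 0 with a median of 0.33 and 34 at an unadjusted p under 0.05. With the summed T and NK cell markers they were 79, 0.38 and 39. Over all loci 1.53% and 1.92% were higher at an unadjusted p under 0.05 in these models, in the same order.

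**Figure D5:**
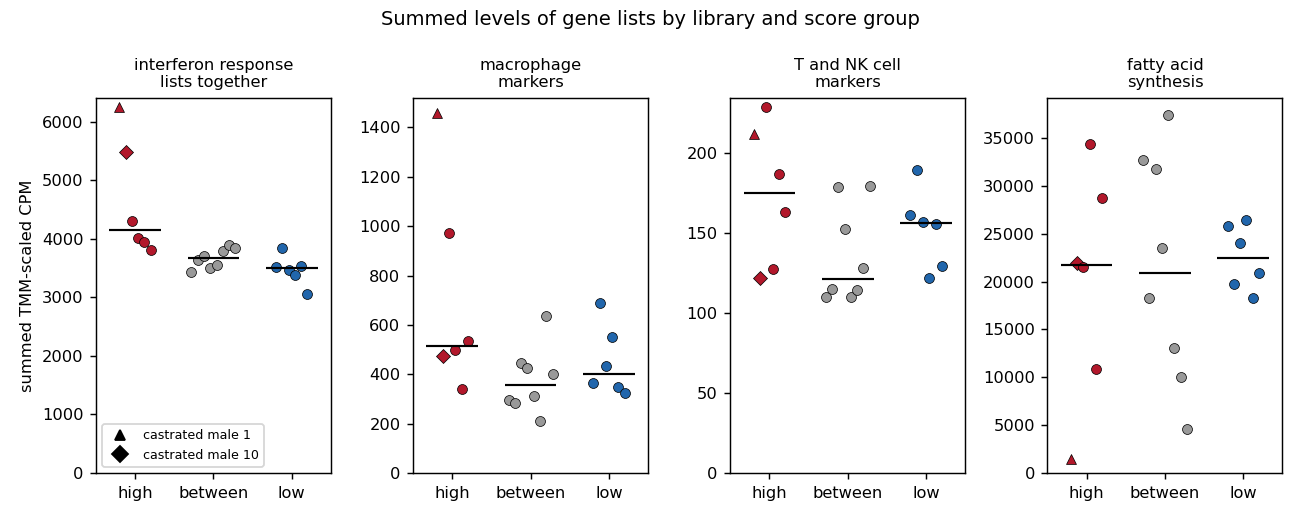
Summed TMM-scaled CPM of 4 gene lists in each library by score group, with the group median as a line; the triangle is castrated male 1 and the diamond castrated male 10. Castrated male 1 has the highest interferon and macrophage sums, 6245 and 1457 CPM, and the lowest fatty acid synthesis sum, 1507 CPM.

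Fewer named genes were lower in the high libraries, and none passed in edgeR between the groups. By the slope over all 20 libraries GRXCR1 was called falling. F5, coagulation factor V, ran from 21.1 to 28.9 CPM with a median of 25.6 against 34.4 to 86.3 CPM with a median of 45.3, with no overlap (log2 difference -1.13, SE 0.227, edgeR adjusted p = 0.288). In the 8 libraries between it ran from 26.1 to 108 CPM, with female 10 highest. FAM43B ran from 1.71 to 8.47 CPM against 5.09 to 41.7 CPM (log2 difference -2.12, SE 0.528), and AMDHD1, an enzyme of histidine breakdown, from 5.78 to 7.42 CPM against 6.86 to 29.2 CPM (log2 difference -1.14, SE 0.293). GRXCR1, of hair cell bundles, and TCF23, a helix-loop-helix factor, lay at -1.11 and -1.05.

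All 7 tested smooth muscle and pericyte loci were below 0 with a median of -0.40. At an unadjusted p under 0.05, 3 were lower, against 1.83% of all loci. CSPG4, a pericyte proteoglycan, ran from 10.1 to 24.2 CPM against 25.7 to 40.5 CPM with no overlap (log2 difference -0.57, SE 0.195), DES, the muscle intermediate filament, lay at -1.28 and CNN1, a calponin, at -0.85. Heat shock and immediate early genes had 10 of 11 below 0 with a median of -0.26. At an unadjusted p under 0.05, 4 were lower, against 1.83% of all loci. The chaperones HSPH1 and DNAJB1 ran from 57.5 to 263 against 96.9 to 1154 CPM and from 54.1 to 232 against 54.0 to 820 CPM, with castrated male 2 highest of the low group for both. Fibroblast and matrix genes had 2 of 16 above 0 with a median of -0.17, and 0 at an unadjusted p under 0.05.

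Fat cell genes did not differ detectably. PPARG, the regulator of fat cell identity, lay at -0.16 (SE 0.212), and PNPLA2, a lipase that starts the release of fatty acids, at -0.11 (SE 0.212). The 3 loci of LIPE, the hormone-sensitive lipase, lay at -0.63, -0.35 and -0.07. SCD, the desaturase that makes oleate, was at 254 CPM in castrated male 1, at 7792 to 25470 CPM in the other high libraries and at 11726 to 21715 CPM in the low ones (log2 difference -0.22, SE 0.608). FASN, the fatty acid synthase, lay at -0.13 (SE 0.698), and 0 of 16 fatty acid synthesis loci were at an unadjusted p under 0.05. Without castrated male 1 the sign of SCD and FASN turned, to 0.05 and 0.13, and that of FASN also turned without castrated male 10, castrated male 9 or female 6, to 0.061, 0.0815 and 0.107. In the 8 libraries between, 15 of the 16 had a slope above 0 with a median of 1.54 and 5 rising at an unadjusted p under 0.05. Over all loci 49.5% were above 0 there and 2.60% rose at that p. Other lists rose too, with proliferation genes at 9 of 10 above 0, a median of 2.42 and 5 rising. The locus matched for MKI67 in the proliferation list carries the symbol NIFK, a different gene. Oxidative phosphorylation had 13 of 14 above 0, with a median of 0.67 and 1 rising, whereas heat shock genes had 2 of 11, with a median of -1.45. Female 9, of the lowest score of the 8, also had their lowest sum of fatty acid synthesis genes, 4624 CPM.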

How the data were processed

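Messenger RNA of backfat from 20 pigs was sequenced. The authors deposited raw counts and FPKM values, scaled for length and depth, per locus for 23483 loci. The submitters' processing notes name the build Sscrofa10.2 and, without their roles, Cufflinks 2.1.1, TopHat2 2.0.8, DESeq2 and Bowtie2 2.1.0.0. Symbols came from gene tables by Ensembl identifier, for 9360 loci, and 474 loci span 2 or more identifiers. Total counts ran from 25754778 to 51248122. 0 of 190 pairs of libraries were identical.

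Counts were tested with edgeR 4.0.16 (TMM scaling, filterByExpr, quasi-likelihood test) in R 4.3.3, with Benjamini-Hochberg adjustment over all loci and a threshold of 0.05. CPM values by library are TMM-scaled, except those of OAS2 and IFIT1 and of the score, which use raw totals. Log2 differences are high minus low. The alternatives were DESeq2 1.42.0, limma 3.58.1 on the deposited FPKM as log2(FPKM + 0.1) and log2(FPKM + 1), other scalings, covariates, groupings and left-out libraries. Scripts were tested on simulated data.

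The members, the gene lists and the tests were chosen with earlier results of these data known. The rule named up to 15 genes per direction past the threshold with a mean CPM of at least 1, and up to 5 per list past it. It also named the 5 of smallest p where fewer passed, and a fixed list of interferon and fat cell genes. Other genes named were chosen after their values were seen, as were MARCO, F5 and the genes given for the slopes. Some genes are not reported here.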

Additional observations from a re-analysis of the deposited data

Results flagged for a closer look

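For the 32 named loci, 64 groups of values were examined for 1 library far from the other 5 of its group, and 9 had one, where chance gives about 1 in 20 groups. Of these, 3 were at castrated male 1 in the high group: IRF1 at 119 CPM (others 44.0 to 60.9), IRF9 at 133 CPM (others 68.4 to 83.3) and PSMB9 at 2.55 CPM (others 1.07 to 1.58). At castrated male 10 there were 2, RSAD2 at 170 CPM (others 31.9 to 79.9) and IFI44L at 288 CPM (others 107 to 156). In the low group castrated male 5, of lowest score, was far below the others for IRF1 at 34.0 CPM (others 45.7 to 48.3) and for IRF9 at 38.03 CPM (others 55.4 to 64.9). Castrated male 2 was far above them for the SLC8B1 locus at 13.2 CPM (others 3.27 to 6.87), and female 6 for 1 of the 3 loci of LIPE at 3.82 CPM (others 1.01 to 1.66).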

How the results depend on the processing

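Of 32 named loci, 24 kept their direction under each of 30 alternatives. Loci higher in the high group numbered 1 and became 20 with DESeq2, 39 by the slope over all 20 libraries, and 0 with labelled sex or the summed macrophage markers as a covariate, with 8 against 8 libraries, with groups from IFIT1 alone and without castrated males 1 and 10. Lower loci numbered 0 and became 6 with DESeq2 and 2 by the slope. With 1 library left out there were 0 to 2 higher and 0 to 1 lower. In the 8 libraries between, edgeR called 0 loci, DESeq2 called 13 rising and 14 falling loci, and leaving out 1 library gave 0 to 0 rising and 0 to 1 falling. Over all 20 libraries the 39 rising loci became 78 with DESeq2, 13 with labelled sex, 23 with age, 17 with macrophage markers, 18 with T and NK cell markers and 1 without castrated males 1 and 10. The 2 falling loci became 7 with DESeq2, 1 with upper-quartile scaling, labelled sex, age or T and NK cell markers, and 0 with macrophage markers, without castrated males 1 and 10 or without both libraries numbered 10. Leaving out 1 library gave 7 to 126 rising and 0 to 4 falling. The cause was not tested.

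The log2 difference of IRF1, at the locus of its own and not that shared with RAD50, was -0.0369 with groups from IFIT1 alone. That of IFIT2 was -0.0919 with those groups and -0.0017 without castrated males 1 and 10. USP18 was at -0.0197 with groups from IFIT1 alone, -0.0194 among labelled castrated males alone and -0.0059 to 0.27 with 1 library left out. PPARG was at 0.0181 without castrated males 1 and 10 and 0.0250 with macrophage markers as a covariate. SCD was at 0.21 with 8 against 8 libraries, 0.0525 with groups from OAS2 alone, 0.0146 without castrated males 1 and 10, 0.0809 with macrophage markers and -0.47 to 0.0462 with 1 library left out. FASN was at 0.16, 0.14, 0.37 and 0.0276 in the same settings, 0.0610 without both libraries numbered 10 and -0.47 to 0.13 with 1 left out. Of the loci of LIPE only the one at -0.07 changed sign. On the FPKM scales with 0.1 and 1 added, this LIPE locus was at 0.0290 and 0.0289 and PNPLA2 at 0.0505 and 0.0503. Without both libraries numbered 10 they were at 0.0896 and 0.0269, without castrated males 1 and 10 at 0.20 and 0.0566, and with 1 left out at -0.27 to 0.0896 and -0.22 to 0.0269. The cause was not tested.

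No paired analysis was possible because the replicate numbers follow the order of the samples and pair no animals. A search of promoters for motifs was not run. With 6 libraries a group, small differences could not be detected.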
